A study of Mus musculus with 12 samples.

Results

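Gm15441, Txnip and Arrdc4 are 3 genes among the 24421 listed in this series, and they were followed through all 4 transfection groups. They were chosen by the measured counts of Gm15441 in 2 of these groups. Gm15441, which lies antisense to Txnip, stood far higher in the eGFP than in the siCTL libraries, and Txnip and Arrdc4 were added as classic glucose-sensing genes. The values of that pair of groups are therefore given as a description. The questions put to the remaining libraries were whether Gm15441 differed in the same way between S45Y and si-bcatenin, and whether Txnip and Arrdc4 followed it.

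RNA was sequenced from SMCC cells, an immortalized line of mouse small cholangiocytes, which are cells of the small bile ducts. A plasmid for eGFP, a fluorescent protein used as the control, or for S45Y, a β-catenin carrying a stabilizing mutation, was transfected for 48 h with a Lipofectamine reagent for DNA. A control siRNA (siCTL) or an siRNA against the β-catenin gene Ctnnb1 (si-bcatenin) was transfected for 24 h with Lipofectamine RNAiMAX. Each group had 3 libraries. All 4 groups were made from this 1 line and received a reagent and a nucleic acid, and untransfected cells were not analysed here. Because plasmids and siRNAs came with different reagents and hours, those 3 differences cannot be told apart in any comparison between them. Nothing in the labels says that replicates were separate cultures, so the p-values measure only the spread between these libraries, which may be technical.

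MondoA (gene Mlxip) and ChREBP (gene Mlxipl) are transcription factors that pair with Mlx, respond to phosphorylated sugars and switch on Txnip and Arrdc4. Txnip binds and inhibits thioredoxin, and both it and Arrdc4, a relative in the alpha-arrestin family, restrain the uptake of glucose. Gm15441 is a long noncoding RNA transcribed across Txnip from the opposite strand, best known from the fasted liver, where PPAR-alpha induces it.

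In GENCODE M21 on the mm10 build, Gm15441 (ENSMUSG00000074398) runs from chr3:96555765-96566801 on the minus strand, and Txnip from chr3:96557957-96561883 on the plus strand. Of the 1676 exonic bases of Gm15441, 606 (36.2%) lie opposite exons of Txnip and 1070 do not. Txnip has 3123 exonic bases, of which 2517 are free of Gm15441. The overlap falls in 2 segments, the first of 441 bases at the Txnip start with 162 coding bases, and the second of 165 bases, all coding. Only the longer annotated Gm15441 transcript, of 4 exons, reaches into Txnip, whereas the shorter one, of 3 exons, ends upstream of the Txnip start. Arrdc4 is on another chromosome, at chr7:68736995-68749241 on the minus strand, with 4039 exonic bases and none of them opposite an exon of another gene.

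**Figure D1:**
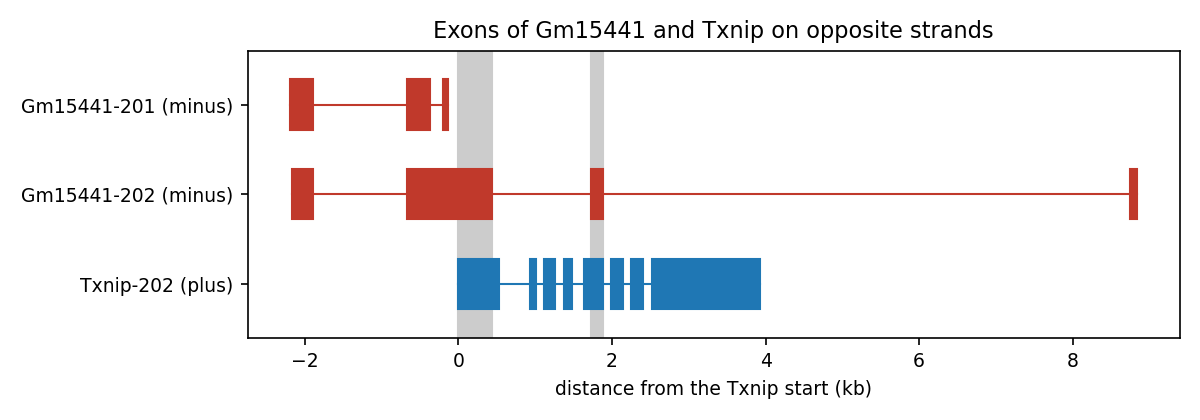
Annotated exons of the 2 Gm15441 transcripts (red, minus strand) and of the longest Txnip transcript (blue, plus strand), drawn against distance from the Txnip start in kb. Grey bands mark the 441-base and 165-base segments in which exons of both genes lie opposite each other, and both are reached only by the 4-exon Gm15441 transcript.

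The second segment shows why reads cannot always be assigned to one of these genes. Shown are the last 24 bases of the segment by coordinate (chr3:96559819-96559842, mm10) as each RNA would carry them, in capitals because every base is complementary to its partner. All 165 of the 165 bases of the whole segment pair in the same way.
Gm15441, minus strand: CAAGGAGTATTCGACTTTGAGGAT
Txnip, plus strand: ATCCTCAAAGTCGAATACTCCTTG
A read from this stretch carries no information on its gene unless the strand is kept. The strand setting, the read type and the annotation used for counting are not given in the sources used here. The 1070 and 2517 bases outside the overlap have no such ambiguity between Gm15441 and Txnip.

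Which strand the counts come from bears on everything that follows. Of 23376 genes of the table that could be placed on 1 strand, 24.1% have exons opposite another gene, and these genes held 71.5% of the counts. Among the 50 genes with the most counts, 47 had such exons. Snx22 was listed with 22606 counts and Ppib, an abundant chaperone gene that shares 825 bases with it, with 28. Acat3 was listed with 30458 counts and Tcp1, a chaperonin subunit that shares 571 bases, with 207. Some genes that most cultured cells express strongly were close to 0, with 13 counts for Gapdh and 1 for Eno1 over the 12 libraries, both of them enzymes of glycolysis. Others were not, with 817 counts for the actin gene Actb. Ribosomal protein genes had a median of 126 counts for the 18 with opposite-strand exons and 122 for the 62 without. If the libraries kept the strand and the counting took the opposite one, reads of Txnip in the shared bases would be listed as Gm15441, and reads of Arrdc4 nowhere. Whether the counts under Gm15441 are RNA of Gm15441 or of Txnip therefore cannot be told apart here, and the same holds for every gene named below with an opposite-strand partner. For genes without such a partner, Arrdc4 and Eno1 among them, few counts or none likewise cannot be read as little RNA. Opposite-strand exonic bases are printed below with some genes only. Others named below that have them include Pdzk1 (1482), Tkfc (924), Pycard (485), Malat1 (453), Mlx (385), Txnrd2 (176), Lix1l (104), Krt8 (101) and Tpi1 (34). In what follows a gene's name stands for the counts listed under it.

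The promoters of Txnip and Arrdc4 carry the E-box-like letters for which glucose-sensing factors are known. Promoter sequences were found in RefSeq (GRCm38.p6) for 2 of the 3 genes, and the 240 bases that end 11 bases before the RefSeq start are shown, with the E-boxes in capitals. For Arrdc4 that start differs from the GENCODE start given above, and distances are counted from the RefSeq one. For Txnip the window is chr3:96557707-96557946 on the plus strand, and for Arrdc4 it is chr7:68749249-68749488 on the minus strand.
Txnip: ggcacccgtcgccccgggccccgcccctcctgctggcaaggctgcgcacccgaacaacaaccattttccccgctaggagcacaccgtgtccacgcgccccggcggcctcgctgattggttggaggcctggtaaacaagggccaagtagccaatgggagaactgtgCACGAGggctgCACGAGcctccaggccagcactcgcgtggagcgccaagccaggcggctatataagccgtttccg
Arrdc4: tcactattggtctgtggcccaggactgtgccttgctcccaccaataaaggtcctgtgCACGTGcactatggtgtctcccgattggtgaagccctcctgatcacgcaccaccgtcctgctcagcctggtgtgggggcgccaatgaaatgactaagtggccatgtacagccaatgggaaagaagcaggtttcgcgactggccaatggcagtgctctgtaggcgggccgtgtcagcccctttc
Txnip carries a pair of CACGAG boxes 5 bases apart, from 85 to 69 bases before its RefSeq start. The paired form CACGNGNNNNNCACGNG, in which N is any base, was found in 13 of 32851 promoter windows of this length (0.0396%). Arrdc4 carries a single CACGTG between 193 and 188 bases before its RefSeq start, a motif held by 1869 of the windows (5.69%). Both strands were searched, and a match of letters is no measure of binding. All 240 bases of the Txnip window lie within exons of Gm15441.

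Total counts were 113481 to 122304 in eGFP, 91468 to 117419 in S45Y, 221767 to 326686 in siCTL and 295677 to 313074 in si-bcatenin. Rn45s, the ribosomal RNA precursor, took 10.03 to 15.4% of the counts in the plasmid libraries and 1.61 to 5.49% in the siRNA libraries. Replicates of each group differed with a chi-square of 2.06 to 2.61 per degree of freedom, and each was counted as 1 sample. Ctnnb1, the target of the siRNA, had 13, 38 and 28 counts in siCTL against 0, 11 and 3 in si-bcatenin. Its log2 fold change was -2.54 (SE 0.55, adjusted p = 0.00491, by the quasi-likelihood (QL) test of edgeR, p adjusted over all genes by Benjamini-Hochberg), although 759 of its exonic bases lie opposite Ulk4. In the plasmid groups the counts of Ctnnb1 were 6, 11 and 10 with eGFP against 11, 4 and 18 with S45Y (log2 fold change 0.51, adjusted p = 0.989 in the same test), and transcripts of the plasmid need not map to the mouse gene.

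Counts of 10 cholangiocyte markers were looked at, of which Epcam and Cftr had no count in any library. The most abundant were the keratins Krt18 and Krt8, the osteopontin gene Spp1 and the keratin Krt19. Among markers of other cells, 4 of 5 for hepatocytes (Alb, Ttr, Apoa1 and Serpina1a), 3 of 5 for fibroblasts (Col1a2, Col3a1 and Pdgfra) and 4 of 5 for leukocytes (Ptprc, Adgre1, Cd3e and Lyz2) had no count in any library. Hnf4a of the hepatocyte list had 35 counts in all and Cd68 of the leukocyte list 174. Gapdh and Eno1 also had few counts in these libraries (13 and 1), so a marker without counts need not be absent. These counts therefore do not decide the cell type.

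Gm15441 was abundant in the plasmid libraries and sparse in the siRNA libraries. The eGFP libraries gave it 552, 540 and 488 counts, and the S45Y libraries 237, 423 and 473. It had 23, 42 and 56 counts in siCTL and 29, 22 and 18 in si-bcatenin, from libraries with larger totals. No siRNA library came near any plasmid library. All 3 S45Y libraries were above all 3 si-bcatenin libraries in CPM, as they were for 15.8% of all genes tested, by any margin.

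Counts were then scaled to a common library size by TMM and expressed as CPM. The eGFP libraries held 4671, 4430 and 4550 CPM, with a mean of 4551 ± 121 (SD, n = 3). The S45Y libraries held 2698, 4325 and 4096 CPM, with a mean of 3706 ± 881 (SD, n = 3). These 2 groups were the highest, and the first S45Y library stood below the other plasmid libraries, with a 95% Poisson interval of 2365 to 3064 CPM that met none of theirs. The siCTL libraries held 101, 125 and 183 CPM (136 ± 42.2) and the si-bcatenin libraries 97.4, 70.0 and 57.6 CPM (75.0 ± 20.4). The lowest plasmid library was 14.7-fold above the highest siRNA library.

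In order of level, eGFP stood above S45Y, S45Y above siCTL, and siCTL above si-bcatenin. Only the step from S45Y to siCTL was wide against the spread of its groups. The highest S45Y library (4325 CPM) was just under the lowest eGFP library (4430 CPM), and the highest si-bcatenin library (97.4 CPM) just under the lowest siCTL library (101 CPM). Poisson intervals of single libraries overlapped across both of these gaps and cover counting error only. As a share of all counts, Gm15441 made up 0.259 to 0.467% of each plasmid library and 0.00575 to 0.0189% of each siRNA library.

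**Figure D2:**
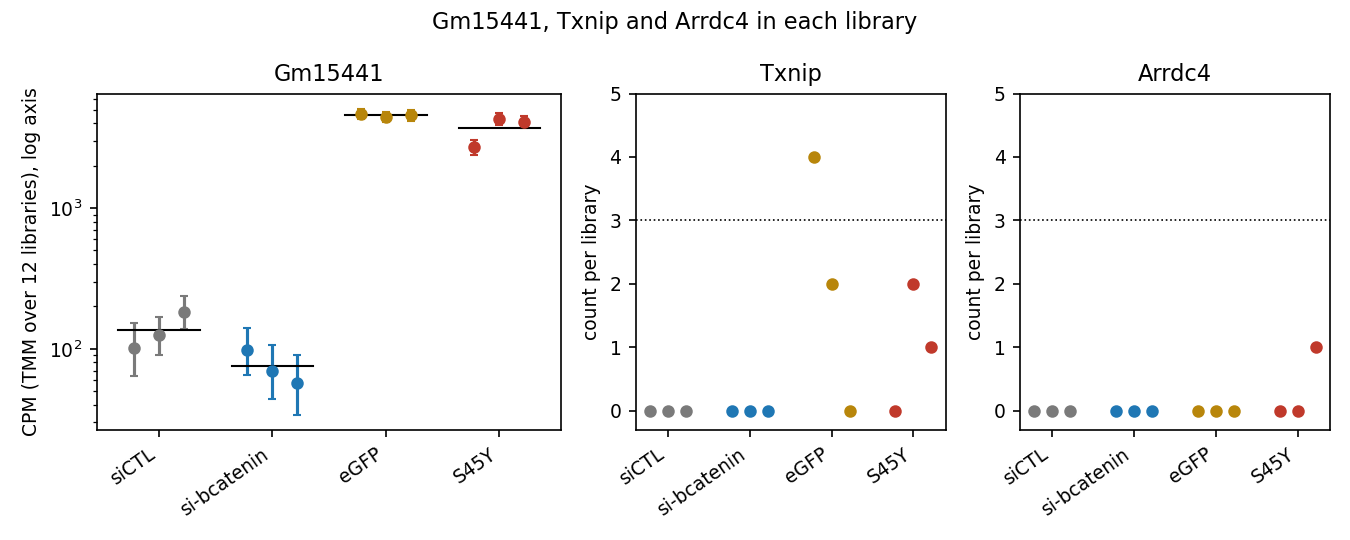
Left, Gm15441 in CPM on a log axis for each library, with 95% Poisson intervals of the count as bars and group means as horizontal lines, showing plasmid libraries between 2698 and 4671 CPM and siRNA libraries between 57.6 and 183 CPM. Middle and right, raw counts of Txnip and Arrdc4 per library, with a dotted line at 3 counts, which only 1 library exceeds.

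The difference that led to the choice of Gm15441 was a log2 fold change of 5.07 for eGFP over siCTL, or 33.5-fold. It was the second highest of the 2459 genes in that comparison, in which 16.9% of genes passed an adjusted p below 0.05. S45Y and si-bcatenin had no library in that comparison and differ in the same reagent and hours. They also differ in β-catenin, which one adds and the other removes, and in depth.

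S45Y was therefore compared with si-bcatenin on 2702 genes. Gm15441 was 50.1-fold higher in S45Y, with a log2 fold change of 5.65 (SE 0.20, 95% interval 5.26 to 6.03, adjusted p = 2.5e-23, edgeR QL test, Benjamini-Hochberg). In this comparison 20.6% of all tested genes passed the same threshold, 8.81% as higher and 11.8% as lower, and the median log2 fold change was 0.02. With no filter on low counts, 89 genes were called higher and 468 lower, against 238 and 319 with it. Gm15441 had the smallest p of all 2702 genes. The exact permutation test on the 6 libraries gave p = 0.1, two-sided, the smallest that 3 libraries against 3 can give. Only Slc13a2, a carrier of dicarboxylates and citrate, had a larger fitted fold. It had 6, 19 and 16 counts in S45Y and none in si-bcatenin, so its fold depends on the prior count and is not given. Gm15441 was higher in 3 of 3 S45Y libraries, and without the low S45Y library its log2 fold change was 5.74. Of the 3 genes, Gm15441 was the only one with enough counts to be tested.

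The contrast of plasmid with siRNA also moved technical and cell-type measures, whose part in the Gm15441 result was not tested. The Rn45s share was 10.2 to 15.03% in S45Y and 1.61 to 2.44% in si-bcatenin. The summed CPM of the 10 cholangiocyte markers was 1564 to 1983 in S45Y and 783 to 894 in si-bcatenin. The sums for the other cell types did not separate the groups, at 0 to 30.7 against 3.18 to 32.0 CPM for hepatocytes, 51.1 to 104 against 54.4 to 87.4 CPM for leukocytes, and 0 in each of these libraries for fibroblasts. With Rn45s left out of the table, the log2 fold change of Gm15441 was 5.66.

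**Figure D3:**
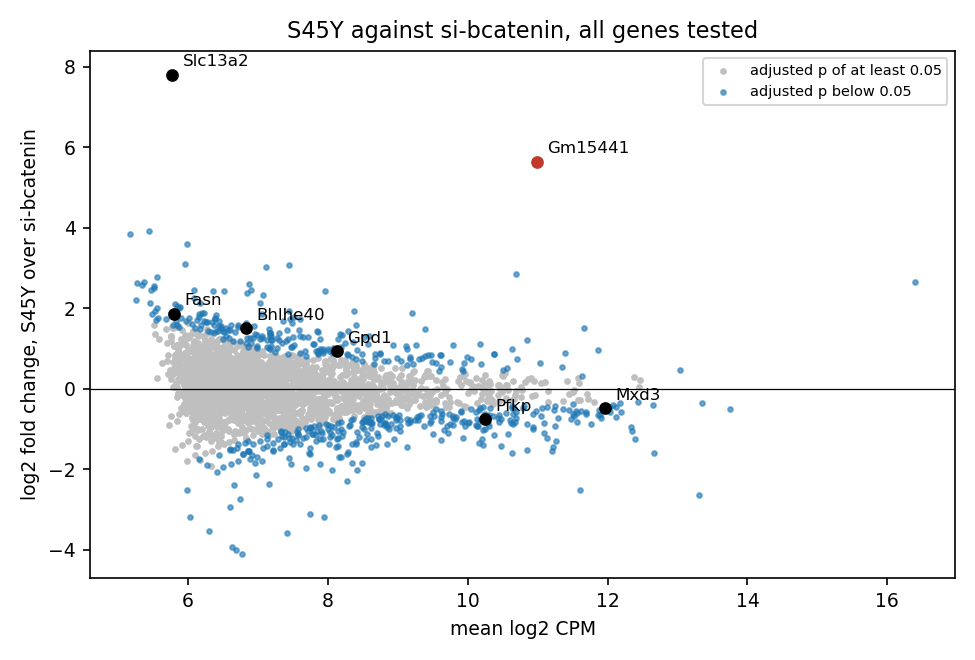
Log2 fold change of S45Y over si-bcatenin (vertical) against mean log2 CPM (horizontal) for the 2702 genes tested, blue where the adjusted p was below 0.05. Gm15441 (red) at 5.65 lies apart from genes of its level, and black points mark 5 genes of the glucose lists between -0.75 and 1.87. Slc13a2, at the top, had no count in si-bcatenin, and its height depends on the prior count.

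Within a reagent, the differences of Gm15441 were far smaller. They are given as descriptions with no p, because the siCTL and eGFP libraries had served to choose Gm15441, as low in the first and high in the second. Silencing of Ctnnb1 was a log2 fold change of -0.90 against siCTL (SE 0.30). All 3 si-bcatenin libraries were below all 3 siCTL libraries, and the share of all genes that separated in this way is not given here. The value rests on few counts, 121 over the siCTL libraries and 69 over the si-bcatenin libraries. It was -0.63 without the third siCTL library and -1.12 without the first si-bcatenin library. Of the 3484 genes in that comparison, 1.55% passed an adjusted p below 0.05.

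S45Y over eGFP was a log2 fold change of -0.25 for Gm15441 (SE 0.14). All 3 S45Y libraries were below all 3 eGFP libraries, again with no share of all genes to set beside it. Without the first S45Y library the value was -0.09. That Gm15441 was chosen for its height in these eGFP libraries favours a lower value in S45Y. No gene passed an adjusted p below 0.05 in this comparison of 1819 genes by edgeR or by DESeq2, so that 0% were called, and 107 genes (5.88%) had an unadjusted p below 0.05.

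The estimates for Gm15441 were thus below 0 both when β-catenin was added and when it was silenced. Activation minus silencing was 0.59 on the log2 scale (SE 0.28). This difference contains the eGFP and siCTL values that chose Gm15441, so it too is given with no p. Of all 2996 genes in that fit, 0.534% passed an adjusted p below 0.05.

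Txnip was at or near the limit of detection in every library. The eGFP libraries gave it 4, 2 and 0 counts and the S45Y libraries 0, 2 and 1, and every siCTL and si-bcatenin library gave 0. The counts it did have were all in plasmid libraries, which are the shallower ones, and the groups overlapped at 0. Pooled over the group, this was 17.3 CPM in eGFP and 9.96 CPM in S45Y. A count of 0 over a whole group allows up to 3 counts, which is 3.45 CPM in siCTL and 3.25 CPM in si-bcatenin. On that floor, and as a description only, eGFP was at least 5.01-fold higher than siCTL. Of its 6 counts, 4 came from the first eGFP library, and the other 2 alone are below the floor, so that without that library no bound remains. The 3 counts of S45Y were themselves no more than such a floor, and no fold is given against si-bcatenin.

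Txnip passed the filter on low counts in none of the comparisons. The exact permutation test gave p = 0.4 for S45Y against si-bcatenin and p = 0.8 for S45Y against eGFP, both two-sided. Whether Txnip followed Gm15441 in S45Y and si-bcatenin could not be read from so few counts. In bulk RNA, fewer cells carrying a transcript and less of it in each cell cannot be told apart.

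Arrdc4 had 0 counts in 11 libraries and 1 count in the third S45Y library. Its floor of 3 counts over the group was 8.64 CPM in eGFP, 9.96 CPM in S45Y, 3.45 CPM in siCTL and 3.25 CPM in si-bcatenin, so that no group was above its floor. The exact permutation test for S45Y against si-bcatenin gave p = 1, two-sided. No change of Arrdc4 was detectable in any direction from these counts.

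Levels of the 3 genes can be compared with one another only per length. Pooled over the group and per kb of exon, Gm15441 stood at 2714 CPM in eGFP, 2245 in S45Y, 83.1 in siCTL and 44.5 in si-bcatenin. Txnip stood at 5.53 CPM per kb in eGFP and 3.19 in S45Y, and its floor was 1.11 in siCTL and 1.04 in si-bcatenin. Arrdc4 stood at 0.822 CPM per kb in S45Y, below its floor of 2.47. The counts listed under Gm15441 thus exceeded those under Txnip in each group. Over all 12 libraries 2903 counts were given to Gm15441 and 9 to Txnip, a ratio of 323 to 1. The ratio was 263 in eGFP and 378 in S45Y, and no ratio exists for the siRNA groups. With the opposite strand counted, the direction would turn around, since the counts under Gm15441 would be Txnip reads of the shared bases and those under Txnip would be Gm15441 reads. With no strand used, reads in the 606 shared bases could have been given to either gene or dropped. Which of these applies was not tested.

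The factors that act on Txnip and Arrdc4 were also thinly covered. Of 8 genes for MondoA, ChREBP, Mlx and the related Max partners, all had at least 1 count, 2 were tested between S45Y and si-bcatenin, and 1 was lower, next to 11.8% of all genes tested. Mlxip had 9 counts over the 12 libraries and Mlxipl had 1. Mlx, the shared partner, did not pass (log2 fold change -0.29, adjusted p = 0.577). Mxd3, which pairs with Max and opposes Myc, held 2516, 3793 and 2416 CPM in S45Y and 4129, 3950 and 4226 CPM in si-bcatenin. Its log2 fold change was -0.48 (SE 0.13, adjusted p = 0.00748, edgeR QL test), and 105 of its exonic bases lie opposite Prelid1. Over the 12 libraries Mxd3 was listed with 9248 counts and Prelid1 with 108, so which of the 2 genes the counts come from cannot be told apart. The call was lost without the third si-bcatenin library (adjusted p = 0.061 in the same test).

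Of 24 genes known to respond to glucose through these factors, Txnip and Arrdc4 among them, 23 had a count in some library and 4 could be tested between S45Y and si-bcatenin. The filter on low counts needed 48.4 CPM of the library total in 3 libraries, and 2 of the 4, Bhlhe40 and Fasn, would not have passed on the si-bcatenin libraries alone. Such genes enter the test because they are high in S45Y, so Bhlhe40, a clock-linked repressor, and Fasn, the fatty acid synthase, are described by their values with no p. Of the other 2, Gpd1, which makes glycerol 3-phosphate, was higher, as were 8.81% of all genes tested. Tkfc, a kinase of fructose breakdown, had a log2 fold change of 1.13 and did not pass (adjusted p = 0.0616 in the edgeR QL test). The remaining 20 genes, Txnip and Arrdc4 included, had too few counts to be tested. With no filter on low counts, a fit whose median over all genes was lower by 0.20 on the log2 scale, the call of Gpd1 did not hold (adjusted p = 0.246 in edgeR).

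Bhlhe40 held 216, 153 and 130 CPM in S45Y and 57.1, 38.2 and 80.0 CPM in si-bcatenin, without overlap. Of all tested genes, 15.8% separated in the same direction. The log2 fold change was 1.51 (SE 0.40), and 118 of its exonic bases lie opposite 0610040F04Rik.

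Fasn held 79.7, 102 and 69.3 CPM in S45Y and 20.2, 15.9 and 32.0 CPM in si-bcatenin, a log2 fold change of 1.87 (SE 0.56). In the controls Fasn varied widely, with 8.46, 8.20 and 112 CPM in eGFP and 0, 56.5 and 45.8 CPM in siCTL. With any 1 si-bcatenin library left out, Fasn did not pass the filter.

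Gpd1 held 307, 358 and 355 CPM in S45Y and 195, 207 and 138 CPM in si-bcatenin, a log2 fold change of 0.95 (SE 0.26, adjusted p = 0.00841). Each S45Y library was above each si-bcatenin library, as for 15.8% of all genes tested. The call was lost without the second (adjusted p = 0.0582) or the third S45Y library (adjusted p = 0.0583), both in the edgeR QL test. Gpd1 shares 384 bases with Gm16537 on the opposite strand.

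Among 20 genes of glucose uptake and glycolysis, 9 were tested between S45Y and si-bcatenin, 1 was higher, 1 was lower and 7 did not pass. Ldha, one of the 7, passed the filter only through S45Y, in which it was higher (log2 fold change 0.42). Over all genes 8.81% were higher and 11.8% lower, shares near those of this list. Tpi1, the triose phosphate isomerase, held 194, 317 and 329 CPM in S45Y and 148, 105 and 192 CPM in si-bcatenin (log2 fold change 0.95, SE 0.30, adjusted p = 0.0184). Those groups met at 192 and 194 CPM, and the call was lost without the second si-bcatenin or the second or the third S45Y library (adjusted p = 0.0771 to 0.161, edgeR QL test) and with no filter on low counts (adjusted p = 0.315). Pfkp, the platelet form of phosphofructokinase, held 615, 941 and 745 CPM in S45Y and 1169, 1432 and 1353 CPM in si-bcatenin (log2 fold change -0.75, SE 0.16, adjusted p = 0.000481). Pfkp passed under all 14 alternatives tried for it, although 748 of its exonic bases lie opposite Pitrm1. Of the same list, Slc2a1, the main glucose carrier of most cells in culture, had 42 counts in all, Gapdh 13, Eno1 1 and Ldhb 0, and none was tested.

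**Figure D4:**
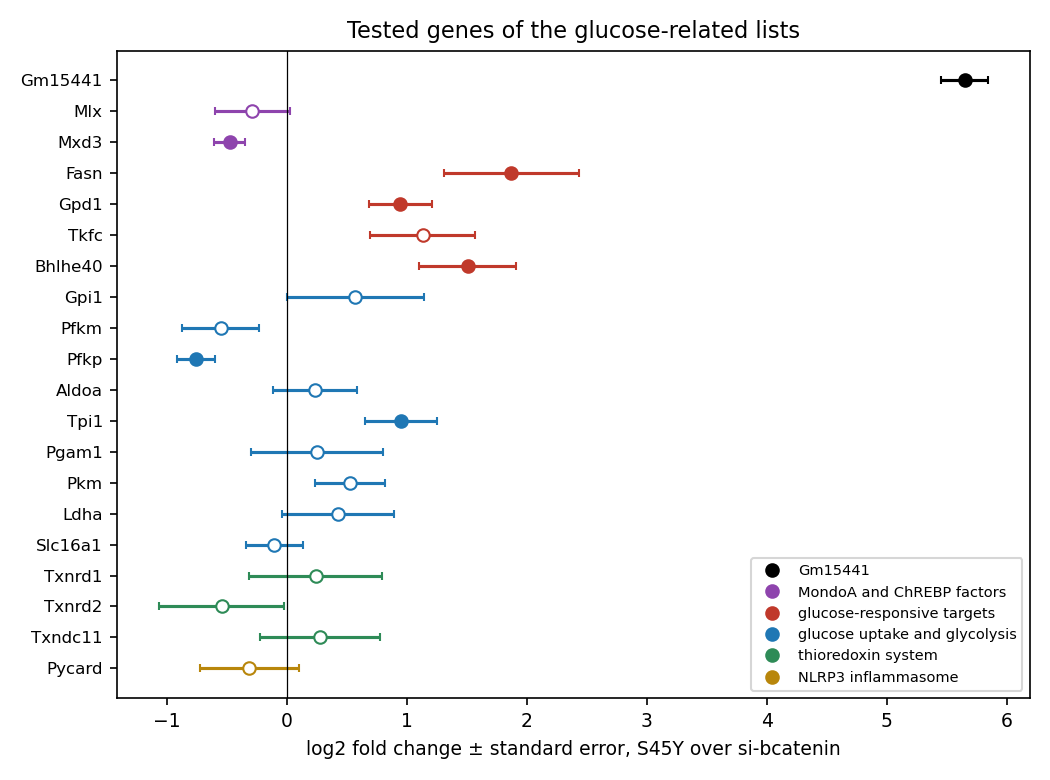
Log2 fold change of S45Y over si-bcatenin with its standard error for Gm15441 and for each tested gene of 5 lists (MondoA and ChREBP factors, glucose-responsive targets, glucose uptake and glycolysis, thioredoxin system, NLRP3 inflammasome), coloured by list, with filled points where the adjusted p was below 0.05. Gm15441 at 5.65 is followed by Fasn at 1.87, and Pfkp at -0.75 is the lowest. Fasn and Bhlhe40 passed the filter only through S45Y, so the fill of their points is not to be read as a call.

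The partners of Txnip in the cell were thinly covered. Of 20 genes of the thioredoxin system, 3 were tested and none passed, where 20.6% of all genes did. Txnrd1, which reduces thioredoxin in the cytosol, was at 0.24 (adjusted p = 0.819), Txndc11 at 0.28 (adjusted p = 0.752) and Txnrd2, the mitochondrial reductase, at -0.54 (adjusted p = 0.511). Txndc11 passed the filter only through S45Y and Txnrd2 only through si-bcatenin, in each case the group in which it was higher. Among 8 alpha-arrestins and beta-arrestins, Txnip and Arrdc4 included, none could be tested, and Arrdc2 had 8 counts in all, Arrdc3 had 3 and Arrb2 had 19. For the NLRP3 inflammasome, which Txnip is known to bind, Nlrp3, Il1b and Il18 had no count in any library. Pycard, its adaptor, was at -0.31 (adjusted p = 0.659).

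PPAR-alpha targets, the group with which Gm15441 rises in the fasted liver, could hardly be measured here. Of 15, 3 had no count in any library. Pdk4 had 1 count over the 12 libraries and Angptl4 had 2, both of them strong fasting genes in liver. Cpt1a, the carnitine transferase of fat oxidation, had 66 counts and was not tested.

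Neighbours of Txnip were listed to cover the rest of the region. The list held 16 genes, of which Gnrhr proved to lie on chromosome 5 and had no count. The other 15 lie on chromosome 3, with their middles between 30.8 kb before and 329 kb after the Txnip start. Of the list, 4 were tested between S45Y and si-bcatenin and none passed, where 20.6% of all genes did. The log2 fold changes were 0.00 for Pdzk1, 0.43 for Lix1l, 0.84 for Rbm8a and 0.28 for Cd160, with adjusted p of 0.993, 0.392, 0.182 and 0.769 in the edgeR QL test. Among those not tested, Polr3gl, a subunit gene of RNA polymerase III whose middle lies 28.1 kb after the Txnip start, was looked at after its values were seen. It had 4, 3 and 5 counts in S45Y and 1, 7 and 2 in the deeper si-bcatenin libraries, or 30.7 to 45.5 CPM against 3.36 to 22.3 CPM. The counts in eGFP were 4, 1 and 2, and in siCTL 1, 0 and 1. In CPM, its plasmid libraries were above its siRNA libraries within each of these pairs of groups. For S45Y over si-bcatenin 15.8% of all tested genes did the same, and for eGFP over siCTL the share is not given here.

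In silencing and in S45Y against eGFP, no gene of any of these lists passed an adjusted p below 0.05, where 1.55% and 0% of all genes did. For Bhlhe40 the log2 fold changes were -0.68 and 0.60 (adjusted p = 0.426 and 0.973), and for Gpd1 -0.12 and -0.16 (adjusted p = 0.905 and 0.989). In the comparison used to choose Gm15441, eGFP over siCTL, the values were 0.30 for Bhlhe40, 1.06 for Gpd1, 0.60 for Tpi1 and -0.76 for Pfkp. These comparisons share libraries with one another and are not independent.

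The genes whose pattern was most like that of Gm15441 were sought by Pearson correlation of log2 CPM over the 12 libraries, among 2995 genes. The highest were Slc7a15 (r = 0.97), a member of an amino acid carrier family, Tmsb10 (0.97), an actin-binding thymosin, Malat1 (0.97), an abundant nuclear noncoding RNA, D17H6S56E-5 (0.97) and Sfi1 (0.97), a centrosomal protein. In all, 49 genes had r above 0.9. Since the libraries fall into a plasmid and an siRNA cluster, r was also taken within each. Within the 6 plasmid libraries r was 0.69 for Slc7a15, 0.65 for Tmsb10, 0.65 for Malat1, -0.16 for D17H6S56E-5 and -0.16 for Sfi1. Within the 6 siRNA libraries it was 0.09, 0.86, 0.19, 0.51 and 0.38 in the same order. By Spearman's rank correlation 5 other genes led, headed by Ifi27 (0.94), and none was shared with the first 5.

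These 5 genes repeated the gap of Gm15441 at a far smaller size. Slc7a15 held 262 to 406 CPM in the plasmid libraries and 73.6 to 111 CPM in the siRNA libraries. Malat1 held 2038 to 2632 and 888 to 1175 CPM, and Tmsb10 2698 to 3527 and 1551 to 2047 CPM. Between S45Y and si-bcatenin their log2 fold changes were 1.72 for Slc7a15, 1.22 for Malat1, 0.90 for Tmsb10, 1.79 for D17H6S56E-5 and 0.87 for Sfi1, against 5.65 for Gm15441. Since they were picked over the same libraries, these values describe them and no p is given.

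**Figure D5:**
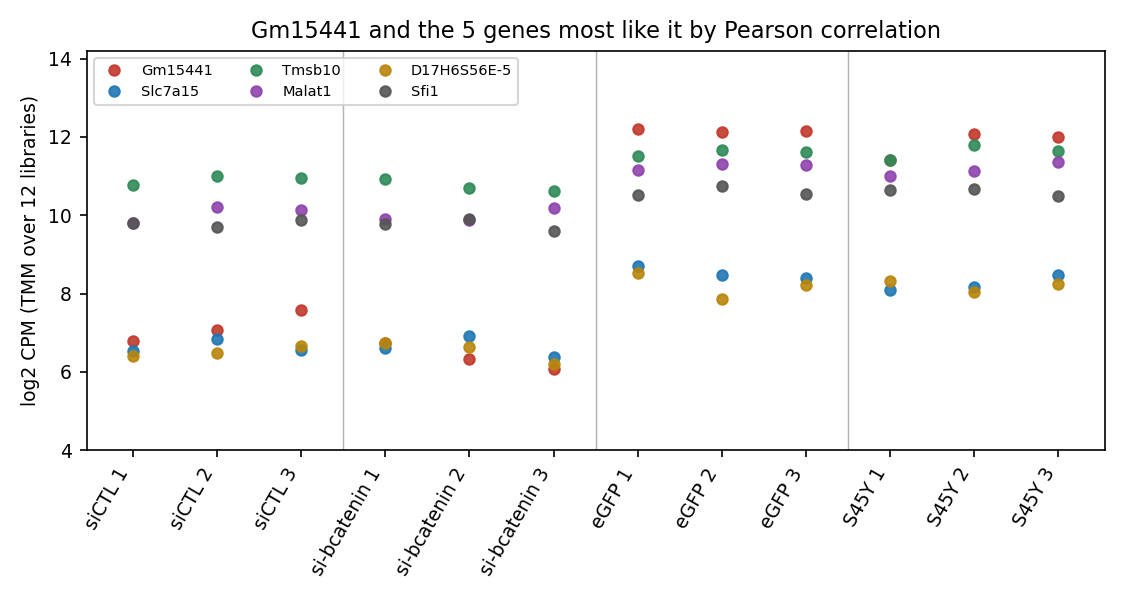
Log2 CPM of Gm15441 and of the 5 genes with the highest Pearson correlation with it, by library, with grey lines between groups. All 6 genes are higher in each eGFP and S45Y library than in any siCTL or si-bcatenin library, and the step is widest for Gm15441.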

How the data were processed

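RNA-seq counts of 12 SMCC libraries, 3 per group, were analysed. The authors trimmed reads with Trimmomatic 0.38, aligned them to mm10 with HISAT2 2.1.0 and counted them per gene with HTSeq 0.11.2 (versions from the submitters' processing notes), and the deposited values are whole-number counts without normalization. Groups were taken from the labels.

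Each comparison was fitted on its own 6 libraries in R 4.3.3 with edgeR 4.0.16, after filterByExpr (minimum count 10, minimum total 15), TMM scaling and the quasi-likelihood test, with p-values adjusted over all genes tested by Benjamini-Hochberg. The interaction used 12 libraries. The 95% intervals of log2 fold changes took the estimate as normal. CPM were scaled by TMM over the genes that passed the filter in 12 libraries. Permutation tests were exact, on log2 CPM (prior count 2). Floors were 3 counts over the group. The code was tested on simulated counts.

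The genes and lists were chosen with earlier results of these data known. Named genes were the 3 genes, Ctnnb1, opposite-strand partners, the 5 genes most correlated with Gm15441, and from each list those called or else the 2 most abundant. Slc13a2, Slc2a1, Ldha, Actb, Snx22, Ppib, Acat3, Tcp1, the ribosomal protein genes and list genes named for having few counts or none were added after their values were seen. The test of 1 list gene is not reported here. Alternatives were DESeq2 1.42.0, other scaling, filters and prior counts, one fit of 12 libraries, a replicate block, Rn45s removed, and each library left out. Precision follows from totals of 91468 to 326686 counts per library.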

Additional observations from a re-analysis of the deposited data

How the results depend on the processing

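Gm15441 stayed higher in S45Y than in si-bcatenin, and past the threshold, under all 8 alternatives (log2 fold change 5.33 to 5.68) and with each library left out (5.44 to 5.92). Silencing kept its negative sign for Gm15441 throughout, at -0.91 to -0.87 over the alternatives (-0.89 with all 12 libraries fitted together) and -1.12 to -0.63 with a library left out. No p is given, since the siCTL libraries had served to choose Gm15441. S45Y against eGFP stayed negative, at -0.29 to -0.26 and, with a library left out, -0.38 to -0.09. Activation minus silencing stayed positive, at 0.56 to 0.65 and 0.33 to 0.86.

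Over all genes, S45Y against si-bcatenin gave 557 calls, of which 238 were higher. Without the low-count filter 557 genes were also called, but 89 were higher and 468 lower, and the median of all genes was at a log2 fold change of -0.18 in place of 0.02 (0.24 with DESeq2). With a library left out, silencing went from 54 calls to between 31 and 49, and activation minus silencing from 16 to between 5 and 22. Silencing gave 31 calls without the second si-bcatenin library, 32 without the third and 34 without the first siCTL library. Activation minus silencing gave 5 without the first S45Y library, and 8 without the first siCTL or the third si-bcatenin library. The cause was not tested.

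Same-numbered libraries did not deviate together (correlations -0.05 to 0.03). Counting error at these totals could hide a shared deviation, so a pairing by number is neither shown nor excluded. With a replicate block the log2 fold changes of Gm15441 were 5.63 for S45Y over si-bcatenin and -0.89 for silencing, and the call of Gm15441 between S45Y and si-bcatenin did not change. The calls over all genes were then 468, 64 for silencing and 17 for activation minus silencing. Txnip and Arrdc4 had 9 and 1 counts in all, too few to be tested under the low-count filter. Their exact permutation p did not change with prior counts of 0.5 and 5.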

Other observations

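Another opposite-strand pair was counted in the same libraries. Xist, the RNA that coats the inactive X chromosome, and Tsix, its antisense partner, share 1980 exonic bases. Over the 12 libraries Tsix had 12328 counts and Xist 97, or 127 counts of Tsix for each count of Xist, with 92.9 to 160 by group. For Gm15441 and Txnip the ratio was 323. In both pairs nearly all counts went to the antisense gene. Both ratios stand beside the low counts of Gapdh and Eno1 (13 and 1). Actb, however, had 817 counts, and ribosomal protein genes had similar medians with and without opposite-strand exons (126 and 122). The strand setting of the counting is not given in the sources used here.

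Cholangiocyte markers were higher in S45Y than in si-bcatenin for 3 of the 4 tested, with log2 fold changes of 1.07 for Krt18, 1.15 for Krt8 and 1.35 for Spp1 (adjusted p = 8.35e-05, 0.00104 and 0.000492 in edgeR's quasi-likelihood test, with 20.6% of all genes called). Krt19 was at 0.71 and did not pass (adjusted p = 0.122). Within a reagent none of the 4 passed, where 1.55% (silencing) and 0% (S45Y against eGFP) of all genes did. Without the third S45Y library the call of Spp1 was lost (adjusted p = 0.0525).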
